A study of Mus musculus with 80 samples.

Results

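Neurotrophins and the ligands of the GDNF family are secreted proteins that neurons read through separate sets of receptors. BDNF binds the receptor tyrosine kinase TrkB (Ntrk2) and neurotrophin-3 binds its relative TrkC (Ntrk3), whereas GDNF and neurturin first bind the membrane-anchored coreceptors GFRα1 (Gfra1) and GFRα2 (Gfra2), which then engage the receptor tyrosine kinase Ret. Sortilin (Sort1) binds neurotrophin precursors and sorts BDNF within the cell. In the striatum, most BDNF is brought in by cortical axons, so that medium spiny neurons (MSN) are known mainly as cells that receive BDNF.

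The 7 genes described here are Ntrk2, Ntrk3, Sort1, Gfra1, Gfra2, Ret and Bdnf. They were chosen by name for these roles, with earlier results of these data known, and all 7 were among the 25160 genes of the table. Their levels were read in 80 single cells collected by FACS from adult dorsomedial striatum, of mice heterozygous for both Drd1a-TdTomato and Drd2-EGFP. These are BAC transgenes in which the Drd1a or Drd2 promoter drives a fluorescent protein, and every cell of every group came from mice carrying both, with no other treatment named in the labels. The study reports usable data from fewer cells than it attempted to sequence and does not name those left out. All 80 deposited cells were used here. The 40 cells labelled Drd1 are called D1 MSN. Of the 40 cells labelled Drd2, the 2 with Chat above 100 TPM are called Chat-positive cells and the other 38 D2 MSN.

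Values are TPM, transcript abundances scaled to a fixed total per cell and corrected for gene length. The study reports a general bias of signal toward the downstream end of transcripts in its data. The size of this bias for the genes here was not tested, so levels of different genes are only roughly comparable within a cell. TPM keep no read count, hence the sequencing depth of a cell is unknown and a gene at 0 is only listed at 0. Since the labels name no animal, cells could not be treated as replicates, each group counted as 1 sample and differences were not tested. Differences are given as the log2 fold of mean TPM plus 1 and beside the same fold within each of the 2 large plates, FACS051_5 with 18 D1 and 16 D2 MSN and FACS086_4 with 21 and 19. Whether a plate was 1 animal cannot be told from the labels.

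The cells had between 648 and 10912 genes above 1 TPM, with a median of 5722 in D1 MSN and 4927.5 in D2 MSN, and the listed genes summed to between 506588 and 958040 TPM per cell. In 3 cells fewer than 2000 genes were above 1 TPM, and these cells were kept. The median of Drd1 was 179.9 TPM in D1 MSN, against 0.291 TPM in D2 MSN. Both Chat-positive cells carried the vesicular acetylcholine transporter Slc18a3, the choline transporter Slc5a7 and the transcription factor Lhx8, and 5 listed cholinergic markers, leaving out Chat, which chose these cells, summed to 2807 and 3912 TPM, against at most 9.22 TPM in any MSN. One cell labelled Drd1 stood out by its astrocyte markers. That cell, from well D04 on FACS051_5, had Drd1 at 2.03 TPM, with 37 of the 40 D1 MSN higher, and its 5 listed astrocyte markers summed to 13081 TPM, most of it Aldoc at 10427 TPM. The same sum was at most 17.6 TPM in the other 39 D1 MSN, of which 2, among them the cell with 648 genes, had Drd1 listed at 0. In the cell with 648 genes the MSN marker Ppp1r1b was at only 1.42 TPM, with the 39 other D1 MSN higher. Both this cell and the cell with astrocyte markers were kept, since the rule takes cells by their label. Gene folds that turn on the cell with astrocyte markers are also given without it.

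Of the 7 genes, the 3 found in most MSN were Ntrk2, Ntrk3 and Sort1. Over all 78 MSN the mean level ran in the order Ntrk3 (66.5 TPM), Ntrk2 (31.7 TPM), Sort1 (17.4 TPM), Gfra2 (2.11 TPM), Bdnf (1.38 TPM), Gfra1 (0.629 TPM) and Ret (0.00182 TPM). The order by the share of cells above 1 TPM put Ntrk2 first, at 84.6% (66 of 78, exact Clopper-Pearson 95% interval 74.7 to 91.8%, counting error only). Ntrk3 followed at 79.5% (68.8 to 87.8%), within the interval of Ntrk2, and then Sort1 at 57.7% (46.0 to 68.8%). Gfra2 lay lower at 16.7% (9.18 to 26.8%), and its interval overlapped that of Bdnf at 5.13% (1.41 to 12.6%), the next in the order. Gfra1 was above 1 TPM in 2.56% of MSN (0.312 to 8.96%) and Ret in none of 78, which allows a share of up to 4.62%.

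**Figure D1:**
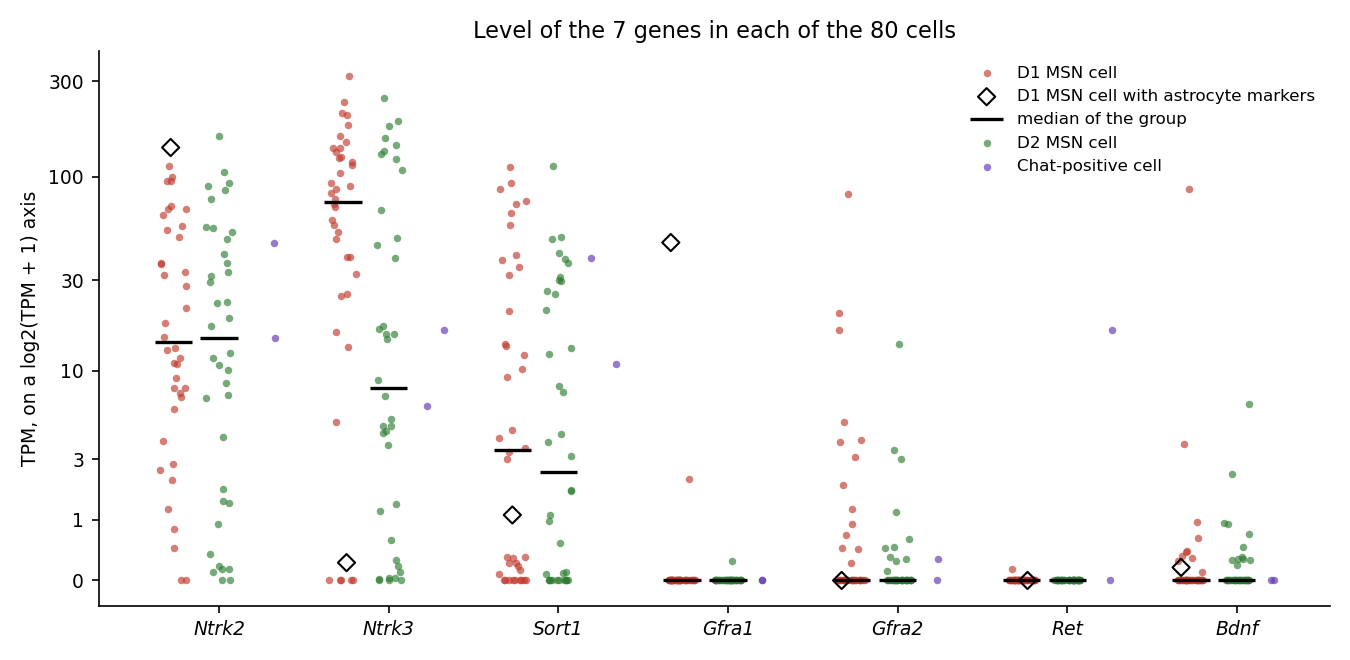
TPM of each of the 7 genes on a log2(TPM + 1) axis, with 1 point per cell for D1 MSN, D2 MSN and Chat-positive cells. Black bars mark the medians of the MSN groups, and the open diamond is the D1 MSN cell with astrocyte markers, which holds the highest Gfra1 value (46.6 TPM) and the highest Ntrk2 value among D1 MSN (140 TPM).

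Ntrk2, the BDNF receptor, had nearly the same median in both MSN types. The gene lies on the plus strand of chromosome 13 at 58806569 to 59133970 (mm10/GRCm38, as all positions here). In D1 MSN it ran from 0 over a median of 14.3 TPM to 140 TPM, with a mean of 32.9 ± 36.6 TPM (SD over 40 cells). In D2 MSN it ran from 0 over a median of 14.9 TPM to 160 TPM, with a mean of 30.4 ± 37.3 TPM (SD over 38 cells). The groups overlapped throughout. The log2 fold, D1 over D2 MSN, was 0.11 (FACS051_5 0.17, FACS086_4 0.07), and without the cell with astrocyte markers it was -0.01. D1 MSN above 1 TPM numbered 36 of 40 (90.0%, interval 76.3 to 97.2%), and D2 MSN 30 of 38 (78.9%, interval 62.7 to 90.4%), with overlapping intervals.

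Ntrk2 differed more between the plates than between the MSN types. The median was 30.7 TPM in the 34 MSN of FACS051_5 and 11.3 TPM in the 40 MSN of FACS086_4, and 33 of 34 against 30 of 40 cells were above 1 TPM. The log2 fold of FACS051_5 over FACS086_4 was 0.86 in D1 MSN and 0.76 in D2 MSN, beside medians over all genes of -0.03 and 0.05. Of 15213 genes with a fold in both types, 7.15% were higher on FACS051_5 by at least as much in both. The median number of genes per MSN was 5717 and 5506 on these plates. Animal and plate cannot be told apart.

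The cell with the highest Ntrk2 level, a D2 MSN of FACS051_5 in well B06 with 160 TPM, had all 5 listed astrocyte markers at 0 and an MSN marker sum of 5304 TPM, exceeded by 1 other D2 MSN. Over 78 MSN the Spearman correlation of Ntrk2 with the astrocyte marker sum was 0.19, a description over cells that share plates and differ in gene number. Astrocytes are known to carry a truncated form of TrkB, and the table gives 1 value per gene and no isoforms. Genes annotated over Ntrk2 on either strand were not analysed here.

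Ntrk3, the neurotrophin-3 receptor, had the highest mean of the 7 genes, and most D1 MSN carried it at a high level whereas D2 MSN were spread from 0 to high levels. It lies on the minus strand of chromosome 7 at 78175959 to 78738012. In D1 MSN it ran from 0 over a median of 74.9 TPM to 319 TPM, with a mean of 86.1 ± 74.6 TPM. In D2 MSN it ran from 0 over a median of 8.07 TPM to 248 TPM, with a mean of 45.9 ± 67.7 TPM. Cells above 10 TPM numbered 33 of 40 D1 MSN and 18 of 38 D2 MSN, and the highest D2 MSN reached the range of the highest D1 MSN. At most 1 TPM was found in 6 D1 and 10 D2 MSN, between 1 and 20 TPM in 3 and 15, and more than 20 TPM in 31 and 13.

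The log2 fold of Ntrk3 means was 0.89, D1 over D2 MSN, beside 0.14 on FACS051_5 and 1.44 on FACS086_4 (SD of the plate folds 0.921). Its size thus depended on the plate and lay within the spread between plates. The D1 and D2 medians were 74.9 and 32.1 TPM on FACS051_5, and 70.5 and 3.69 TPM on FACS086_4. The D1 medians were close to each other and the D2 medians apart. The difference of mean log2(TPM + 1), which gives high cells less weight, was 1.81 for all plates, 0.54 for FACS051_5 and 2.69 for FACS086_4. D1 MSN above 1 TPM numbered 34 of 40 (85.0%, interval 70.2 to 94.3%), and D2 MSN 28 of 38 (73.7%, interval 56.9 to 86.6%).

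Ntrk3 moved with the number of genes found in a cell, with a Spearman correlation of 0.61 over 78 MSN, the highest among the members tried (Ntrk2 0.32, Sort1 0.41, Gfra2 0.40, Bdnf 0.40). D1 MSN had more genes than D2 MSN on FACS086_4 (medians 5730 and 4617) and fewer on FACS051_5 (5109 and 5923). Among cells with at least 6000 genes, the medians of gene number were 6750 in 18 D1 MSN and 6725 in 12 D2 MSN. In those cells Ntrk3 ran from 39.5 over 117 to 208 TPM in D1 MSN and from 4.37 over 47.2 to 248 TPM in D2 MSN. Thus 5 of these 12 D2 MSN lay below the lowest of these D1 MSN, while the highest value among these cells was a D2 MSN. Cells grouped by gene number were pooled over plates, and the share of each plate was not matched between the types. Among cells with 4000 to 6000 genes the medians were 39.6 TPM (15 D1 MSN) and 10.6 TPM (14 D2 MSN), and in cells with fewer genes the medians were 0 and 0.151 TPM. In cells with at least 5000 genes the log2 fold of means was 0.49.

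Overlapping transcripts on the opposite strand could add to these values where reads were counted without strand. The sources used here do not state the counting setting, and strand cannot separate a transcript on the same strand. Gm44607, annotated inside Ntrk3 on the same strand, was above 1 TPM in 15 D1 and 6 D2 MSN with a mean of 7.92 and 1.33 TPM. Gm9885, on the opposite strand, was above 1 TPM in 2 cells of each type.

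**Figure D2:**
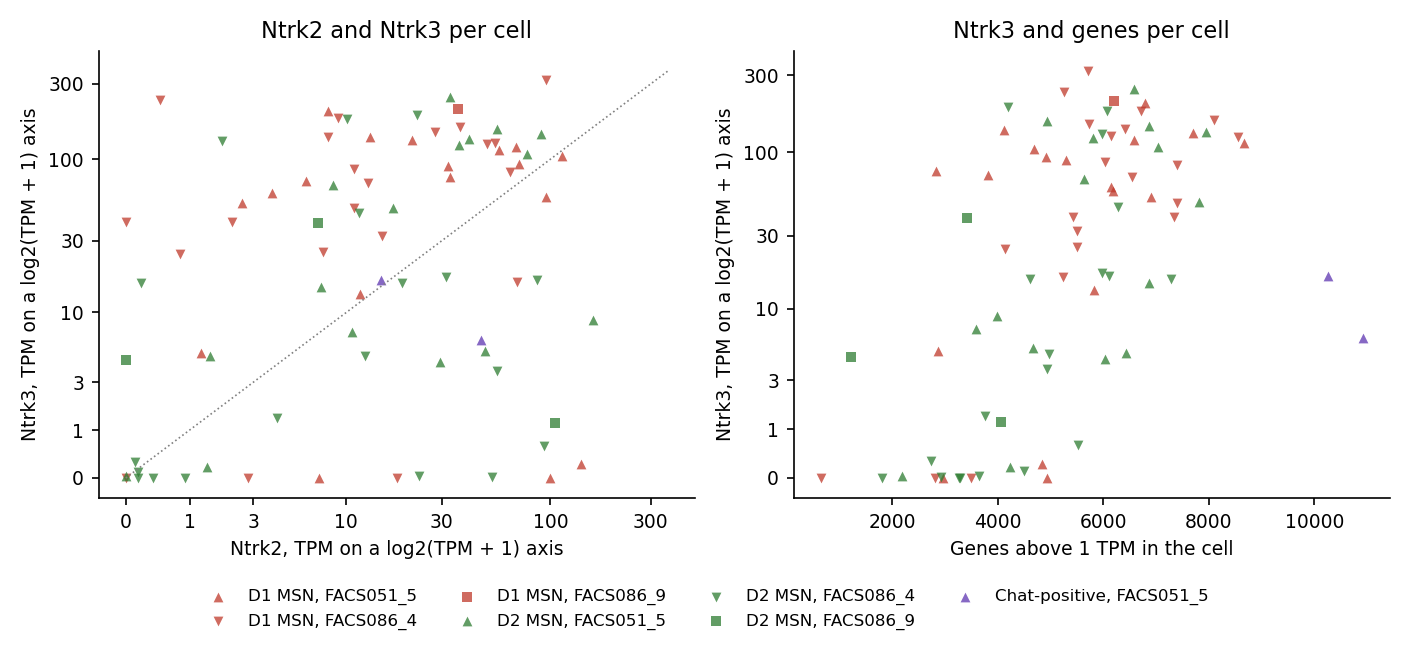
Left, Ntrk3 against Ntrk2 per cell, both as TPM on log2(TPM + 1) axes, with equal levels on the dotted line. Right, Ntrk3 against the number of genes above 1 TPM; red is D1 MSN, green D2 MSN, violet the Chat-positive cells, and the marker shape is the plate. Of the cells with either gene, 31 of 39 D1 MSN and 17 of 32 D2 MSN lie above the line, and D1 MSN with at least 6000 genes all lie at or above 39.5 TPM of Ntrk3.

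TrkB and TrkC transcripts were mostly found in the same cells. Of the 78 MSN, 57 had both above 1 TPM and 7 had neither. Ntrk3 exceeded Ntrk2 in 31 of the 39 D1 MSN with either gene above 1 TPM (79.5%, 63.5 to 90.7%) and in 17 of 32 such D2 MSN (53.1%, 34.7 to 70.9%). On FACS051_5 these counts were 13 of 18 and 10 of 15, and on FACS086_4 they were 17 of 20 and 5 of 14, so the 2 types lay apart mainly on the second plate. The Spearman correlation of both levels over 78 MSN was 0.28.

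Sort1, which lies on the plus strand of chromosome 3 at 108284082 to 108361511, did not separate the MSN types. In D1 MSN it ran from 0 over a median of 3.44 TPM to 112 TPM, with a mean of 20.2 ± 31 TPM. In D2 MSN it ran from 0 over a median of 2.47 TPM to 114 TPM, with a mean of 14.5 ± 22.8 TPM. D1 MSN above 1 TPM numbered 23 of 40 (57.5%, interval 40.9 to 73.0%), and D2 MSN 22 of 38 (57.9%, interval 40.8 to 73.7%). The log2 fold was 0.46 (FACS051_5 -0.10, FACS086_4 0.95), so its sign differed between plates. The same-strand transcript Gm43099 inside Sort1 was above 1 TPM in 18 D1 and 8 D2 MSN, at up to 9.71 TPM.

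Gfra2, the neurturin coreceptor, was found in a minority of cells. It lies on the plus strand of chromosome 14 at 70890120 to 70979838, with no overlapping gene in the annotation. D1 MSN above 1 TPM numbered 9 of 40 (22.5%, interval 10.8 to 38.5%), and D2 MSN 4 of 38 (10.5%, interval 2.94 to 24.8%), with a median of 0 in both. The 3 highest D1 MSN had 81.5, 20.2 and 16.5 TPM, and the highest D2 MSN had 14 TPM. The log2 fold of 1.46 (0.22 on FACS051_5, 2.19 on FACS086_4) rested in part on the cell with 81.5 TPM, and without the highest cell of each group it was 0.98. That cell, in well D04 of FACS086_4, had D1 MSN markers summing to 2528 TPM and an astrocyte marker sum of 6.68 TPM.

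Gfra1, the GDNF coreceptor, was found in 2 MSN, both labelled Drd1 and both on FACS051_5. It lies on the minus strand of chromosome 19 at 58235604 to 58455909. One was the cell with astrocyte markers, at 46.6 TPM, which held 95.0% of all Gfra1 TPM in MSN. The other, in well B07, had 2.2 TPM, and the antisense transcript Gm16277, which overlaps Gfra1, was listed at 36.2 TPM in that same cell and above 1 TPM in no other MSN. The highest D2 MSN had 0.249 TPM. The log2 fold of 1.14 was 0.07 without the cell with astrocyte markers, and Gfra1 then stood above 1 TPM in 1 of 39 D1 MSN and 0 of 38 D2 MSN. The latter allows a share of up to 9.25%.

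Ret, the signalling receptor that GFRα1 and GFRα2 share, lies on the minus strand of chromosome 6 at 118151745 to 118197718. It was listed above 0 in 1 of 78 MSN, a D1 MSN with 0.142 TPM. The 15 MSN with Gfra1 or Gfra2 above 1 TPM included none with Ret above 1 TPM, nor did the 41 MSN with Gfra1, Gfra2 or Gfra4. Counting every value above 0, the cell with 0.142 TPM of Ret had neither Gfra1 nor Gfra2 but did have Gfra4. The depth of these cells is unknown, so a low level of Ret could have been missed.

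Bdnf, the ligand of TrkB, lies on the plus strand of chromosome 2 at 109674700 to 109727007 and is overlapped by the antisense gene Gm45346. It was above 1 TPM in 2 D1 MSN with 87.2 and 3.78 TPM and in 2 D2 MSN with 6.53 and 2.39 TPM. Smaller values above 0 brought the counts to 11 and 12 cells. The cell with 87.2 TPM, in well A06 of FACS086_4, had D1 MSN markers summing to 2875 TPM and all 3 listed cortical neuron markers at 0. Its oligodendrocyte markers summed to 68.2 TPM, exceeded by 3 of the 40 D1 MSN, beside a D1 median of 2.86 TPM, and their part in the Bdnf value was not tested. The same cell held the highest MSN value of the p75 receptor Ngfr, 3.09 TPM. The log2 fold of 1.31 came from this cell. Without the highest cell of each group it was -0.0019, and on FACS051_5, where that cell was not, it was -0.26.

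**Figure D3:**
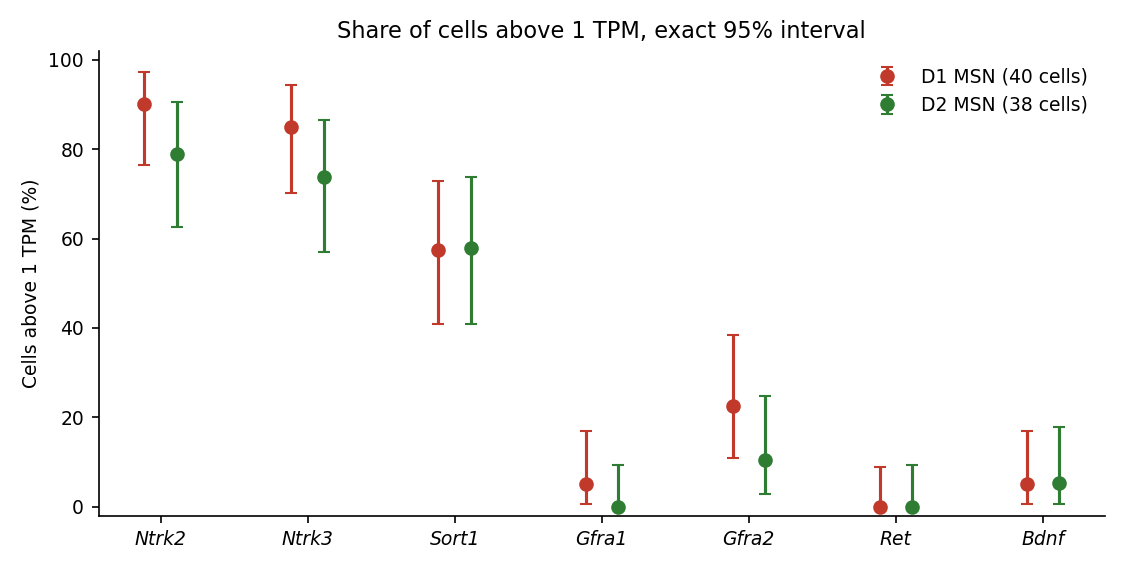
Share of D1 MSN (40 cells) and D2 MSN (38 cells) above 1 TPM for each gene, in percent, with exact Clopper-Pearson 95% intervals for counting error only. The intervals of the MSN types overlap for all 7 genes, from Ntrk2 at 90.0% and 78.9% to Ret at 0 of 40 and 0 of 38 cells.

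No member was lower in D1 MSN by a log2 fold past 1 (10% of 19966 genes were), and 3 of the 6 members with a fold were higher past it (14.2% of the genes were). Among genes averaging at least 1 TPM, 18.4% were higher and 12.9% lower. The 3 were Gfra1, Gfra2 and Bdnf, each with a median of 0 in both types. With the highest cell of each group left out, 0 members passed. Without the cell with astrocyte markers 2 passed, and Gfra1 was at 0.07. The median fold over the 6 members was 1.02, beside 0.05 over all 19966 genes. This median lay between the folds of Ntrk3 and Gfra1. Without the cell with astrocyte markers, the middle of the 6 folds lay lower, between those of Sort1 (0.49) and Ntrk3 (0.93). Ret was listed at 0 in every D2 MSN and has no fold.

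**Figure D4:**
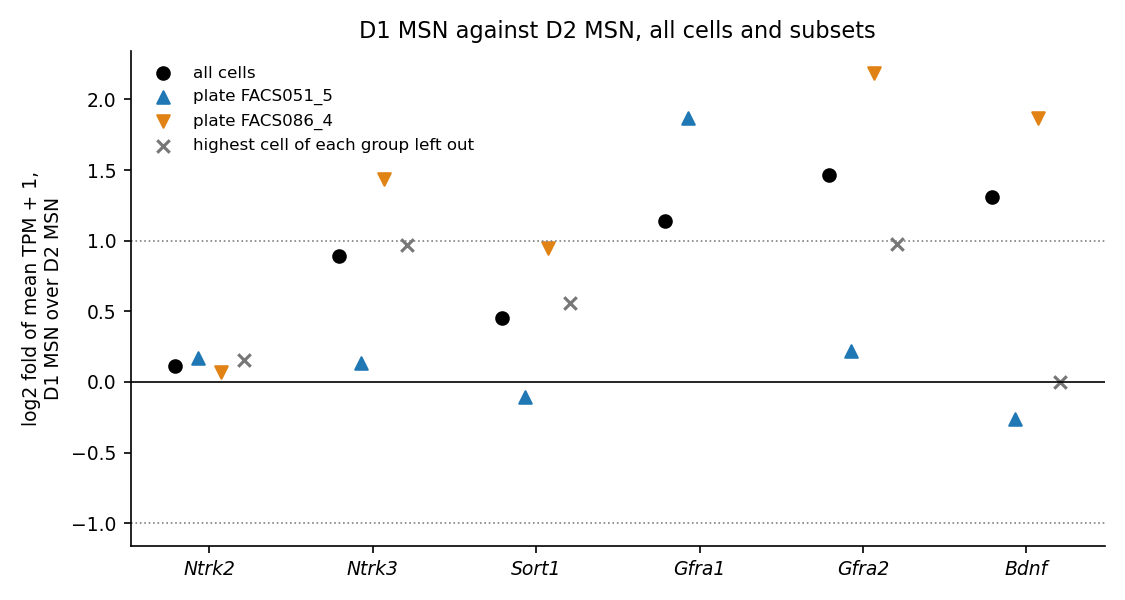
log2 fold of mean TPM + 1, D1 over D2 MSN, for all cells, for each large plate and without the highest cell of each group. Dotted lines mark folds of 1 and -1. Ntrk2 stays near 0 in each, Ntrk3 is 0.14 and 1.44 on the plates, and Bdnf drops from 1.31 to about 0 when the highest cells are left out. Gfra1 has no value on FACS086_4, where it was listed at 0, nor without the highest cells, which left D2 MSN at 0.

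Most MSN carried several of the 7 transcripts. D1 MSN had 2, 3 or 4 members above 1 TPM in 14, 13 and 9 cells, and D2 MSN in 10, 16 and 2 cells. The D2 MSN with 5 members, in well C12 of FACS051_5, was among the cells with many genes (7813) and held Ntrk2 at 17.3 TPM, Ntrk3 at 49.2 TPM, Sort1 at 8.22 TPM, Gfra2 at 14 TPM and Bdnf at 2.39 TPM. No member was above 1 TPM in 1 D1 and 4 D2 MSN. Correlations between Ntrk2, Ntrk3, Sort1 and Gfra2 over 78 MSN were weak, from 0.15 (Sort1 and Gfra2) to 0.28 (Ntrk2 and Ntrk3).

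The genes most like each member over the 78 MSN were ranked among 7769 genes by Spearman correlation, as a description. For Ntrk2 they were the G protein subunit Gng7 (0.50), Kmt2d (0.50) and Mmd (0.49). For Ntrk3 they were Cyfip2 (0.60), Rrm1 (0.59) and Arntl2 (0.57), and for Sort1 Arhgap31 (0.51), Scai (0.51) and Gfm2 (0.49). With gene number per cell regressed out, these values fell to between 0.34 and 0.44, and 2 of the 3 genes for Ntrk2, 0 for Ntrk3 and 1 for Sort1 were still among the first 3.

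Among the other ligands, most were rare in MSN. Gdnf was above 1 TPM in 2 D1 and 2 D2 MSN, at up to 14 TPM, and that highest value was in the D1 MSN with the highest Gfra2 level. Neurturin (Nrtn) was above 1 TPM in 3 D1 MSN and no D2 MSN. Its highest value, 106 TPM, was in the D1 MSN of plate FACS086_9, which also held the highest persephin (Pspn) value, 77.7 TPM, and Gfra2 at 16.5 TPM. Ntf5 and Artn were at most 0.194 and 0.347 TPM in MSN. Cdnf was above 1 TPM in 3 D1 and 2 D2 MSN, with 1 D2 MSN at 117 TPM. Manf, a secreted protein of the endoplasmic reticulum unrelated to GDNF in sequence, was above 1 TPM in 19 D1 and 18 D2 MSN.

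The other listed receptors divided into common and rare ones. Ngfr, the p75 receptor for all neurotrophins, was above 1 TPM in 7 D1 and 2 D2 MSN, at up to 3.09 TPM. Gfra4, the persephin coreceptor, was found in more cells than Gfra1 or Gfra2, above 1 TPM in 13 D1 and 18 D2 MSN and reaching 447 and 325 TPM. The adhesion molecule Ncam1, which can act as a GDNF receptor without Ret, was above 1 TPM in 36 D1 and 32 D2 MSN with medians of 37.7 and 21.4 TPM.

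Of the relatives of sortilin, Sorl1 was the most widely found, above 1 TPM in 33 D1 and 31 D2 MSN. Its log2 fold was -1.45 (FACS051_5 -0.93, FACS086_4 -1.25), the one receptor lower in D1 MSN past 1 with the same sign on both plates, while its medians were 10.3 and 17.8 TPM. Sorcs1 was above 1 TPM in 18 D1 and 10 D2 MSN with a log2 fold of 1.08, whereas Sorcs2 (14 and 14 cells, 0.51) and Sorcs3 (9 and 17 cells, -0.50) stayed within a fold of 1. The GDNF-binding proteoglycan Sdc3 was above 1 TPM in 11 D1 and 3 D2 MSN, with a log2 fold of 2.19 (1.81 and 2.34 on the plates). The TrkB-binding protein Slitrk5 was above 1 TPM in 22 D1 and 12 D2 MSN, with a log2 fold of 1.21 (0.71 and 1.17). Lrig1 (-0.94), Lingo1 (0.17) and Ptprs (-0.07) stayed within 1. Nradd, at -2.22, was above 1 TPM in a single D2 MSN.

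Of 64 other genes of these pathways, 59 were listed and 55 had a fold between MSN types. In D1 MSN, 9 were higher past 1 (16.4%, beside 14.2% of all genes) and 12 lower (21.8%, beside 10%). Of these, 5 and 2 had a fold of the same sign on both large plates. A gene listed at 0 in all cells of a type on a plate has no fold there and could not count. This held for the lower genes Dok4 and Frs3 on FACS051_5 and Shc3 on FACS086_4, among others. Without the cell with astrocyte markers 7 were higher and 12 lower, since Plcg1 and the convertase Pcsk6 (2.30, and 0.18 without that cell) came below 1. The median fold was 0.047, beside 0.051 over all genes. Of 29 adaptors and signalling proteins with a fold, 3 were higher and 8 lower. Counted in the same way, 1 of each had a fold of the same sign on both plates. The largest folds among genes averaging at least 5 TPM in the higher type were Sdc3 (2.19), the phospholipase Plcg1 that Trk receptors activate (1.65), the huntingtin-associated transport protein Hap1 (1.42) and the feedback inhibitor Spry2 (1.26). On the lower side they were the adaptors Dok4 (-4.12), Frs3 (-3.19), Dok5 (-2.76) and Dok6 (-1.61), of which Dok5 was above 1 TPM in 10 D1 and 15 D2 MSN, and the others in at most 8 cells of a type. Some of these folds rested on a single cell or plate. Plcg1 was at 2.95 on FACS051_5 and -0.81 on FACS086_4, its highest value (121 TPM) was in the cell with astrocyte markers, and its fold without that cell was 0.93. One D2 MSN held 87.0% of the Frs3 TPM of its type and another 74.7% of the Dok6 TPM, and without the highest cell of each group the folds were -1.07 and -0.43. Dok6 was at 0.41 on FACS051_5 and -2.16 on FACS086_4, and Dok5 at -2.82 and -0.35. Sdc3 had the closest folds on the plates among these genes (1.81 and 2.34). Folds past or near 1 on both plates were also found for Hap1, above 1 TPM in 18 of 40 D1 and 5 of 38 D2 MSN with log2 folds of 1.86 and 0.91 on the plates, and Spry2, above 1 TPM in 36 D1 and 33 D2 MSN with medians of 5.99 and 2.26 TPM and folds of 0.87 and 1.68.

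The members themselves lay inside the range of the MSN in both Chat-positive cells, here named A08 and B02 for their wells, except for Ret in B02. Ntrk2 was at 46.6 TPM in A08 and 15.01 TPM in B02, with 28 and 19 of the 38 D2 MSN lower. Ntrk3 was at 6.32 and 16.5 TPM, with 18 and 23 of 38 D2 MSN lower, and the log2 fold of means was -1.92. Among the 16 D2 MSN of the same plate, whose median was 32.1 TPM, 5 and 8 were lower, and the fold was -2.46. Sort1 was at 10.9 and 38.9 TPM, with 24 and 34 of 38 D2 MSN lower. Ntrk2 exceeded Ntrk3 in A08, and the levels were close in B02.

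Ret was at 16.4 TPM in B02 and listed at 0 in A08. The value in B02 was above all 78 MSN, of which the highest had 0.142 TPM. In neither cell was Gfra1 above 0, and Gfra2 was at 0 in A08 and 0.284 TPM in B02. Gfra4 was at 126 and 146 TPM, above 33 and 34 of the 38 D2 MSN. Gdnf was at 13.5 and 4.19 TPM, with 38 and 37 of the D2 MSN lower, and Nrtn at 0 in A08 and 54.2 TPM in B02. Bdnf was at 0 in both cells and Ngfr at 0 and 0.291 TPM. These are 2 cells of 1 plate with 10912 and 10251 genes, more than any MSN, and how far gene number sets these values was not tested.

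**Figure D5:**
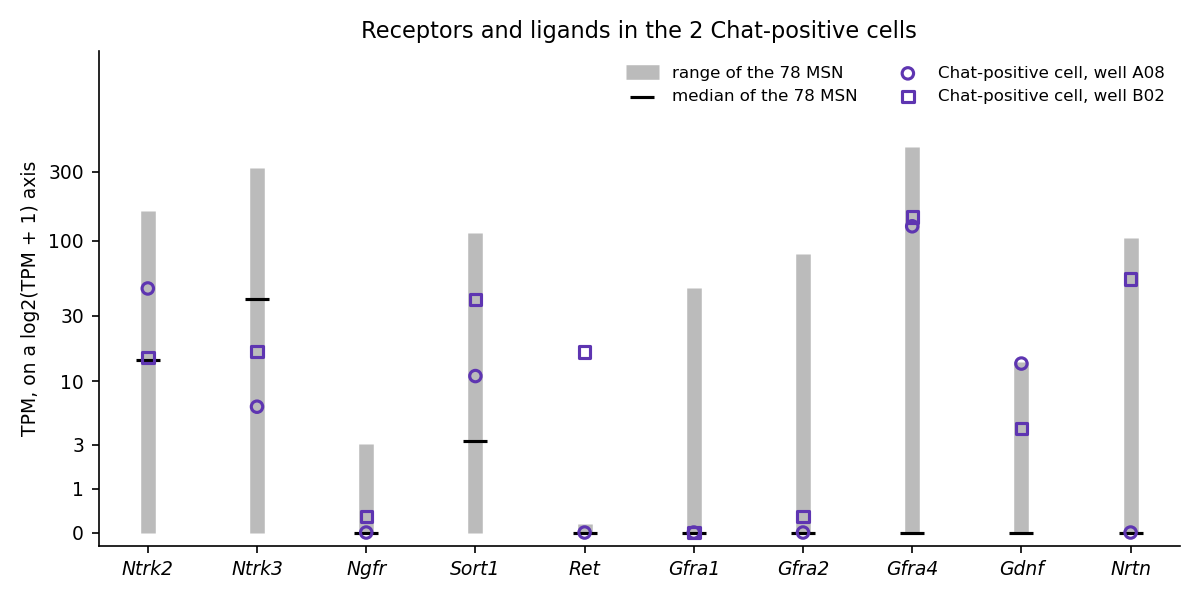
TPM of receptors and ligands on a log2(TPM + 1) axis in the 2 Chat-positive cells (circle, well A08; square, well B02), with the range (grey) and median (black) of the 78 MSN. Ret lies above the MSN range in B02 only, and Ntrk2, Ntrk3 and Sort1 lie inside the range.

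Of the 4 members with a fold between Chat-positive cells and D2 MSN, 0 were higher past 1 (31.1% of 14162 genes were) and 1, Ntrk3, was lower (15.4% were). Gfra1 and Bdnf, listed at 0 in both Chat-positive cells, and Ret, listed at 0 in every D2 MSN, have no fold. Of 46 other pathway genes with a fold, 17 were higher and 9 lower, with a median of 0.57 beside 0.33 over all genes. The largest of these were Nrtn (4.79), the prohormone convertase Pcsk1 (3.66), the receptor phosphatase Ptprs (3.43) and Sdc3 (3.06). Ptprs was at 233 and 288 TPM, above all 78 MSN. The lowest were Sorcs2 (-3.03), the adaptor Sh2b1 (-2.92), Spry2 (-2.33) and Hap1 (-1.87). Ntf3, Gfra3 and Gfral were not matched by symbol among the listed genes and so were not analysed here.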

How the data were processed

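Single cells of the dorsomedial striatum were sorted by FACS, and cDNA was made with the SMARTer v3 kit and sequenced. The authors deposited a table of TPM, which was used as it stood. The submitters' processing notes name bcl2fastq 2.18, STAR 2.5.0, featureCounts 1.5.1 and DESeq2 1.14.1 with mm10/GRCm38. How counts became TPM, and whether counting used strand, is not given in the sources used here, and depth per cell is unknown.

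Groups came from the labels. The members and gene lists were chosen with earlier results of these data known. Each deposited sample is 1 cell and the labels name no animal (the study's methods name several), so no test was made. Folds are log2 of mean TPM plus a pseudocount of 1, and genes listed at 0 in every cell of a group have none. Cells count for a gene above 1 TPM, with exact Clopper-Pearson 95% intervals for counting error. The spread of a D1 over D2 MSN fold is the SD over the 2 large plates. For Gfra1, with a fold on FACS051_5 only, it is the distance of that fold from the fold over all cells. For folds of Chat-positive cells it is the SD of log2(TPM + 1) over the 2 cells. Pathway genes named are the listed ligands and receptors and the 4 largest folds per direction averaging at least 5 TPM in the higher group. Part of the fixed pathway list is not reported here. Gene number bands, plate folds and overlapping transcripts were added after values were seen, and genes or cells named from them were chosen after their values were seen. Alternatives changed the pseudocount, detection limit, scaling, plates and cells. Positions are from GENCODE M21, where 24024 of 25160 symbols were found. Likeness needed more than 1 TPM in at least 20 MSN. Steps were tested on simulated data. Scripts ran under Python 3.11.15 with pandas 2.3.3, numpy 2.4.6, matplotlib 3.10.9 and scipy 1.17.1.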

Additional observations from a re-analysis of the deposited data

How the results depend on the processing

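Of 256 recomputed values, 201 stayed within the limit set for them, 53 moved further and 2 changed sign from a fold past 1. Both were the Bdnf fold, D1 over D2 MSN, which was -0.22 without plate FACS086_4 and -0.0019 without the highest cell of each group (added after seeing the data, as were the settings without the cell with astrocyte markers and with at least 5000 genes). The limit for a fold was its spread, which was wide for Gfra2 (1.39) and Bdnf (1.51). Folds of 0.34 for Gfra2 (pseudocount of 10 TPM) and 0.06 for Bdnf (means of log2 values) thus counted as within it. A fold within its limit therefore need not be stable. Shares were judged by their interval and counts of genes by their ratio to the main count. Means of log2(TPM + 1) gave folds of 0.38 for Ntrk2, 1.81 for Ntrk3 and 0.17 for Gfra1. The Ntrk2 fold was -0.017 without plate FACS051_5, -0.012 without the cell with astrocyte markers and -0.21 in cells with at least 5000 genes, and for Chat-positive cells over D2 MSN it went from 0.016 to between -0.32 and -0.041 in 4 settings, so 9 recomputed folds in all had the other sign. The Gfra1 fold was 3.63 with a pseudocount of 0.1 TPM, 0.17 with 10 TPM and 0.069 without the cell with astrocyte markers. No paired analysis was possible because replicate numbers only name cells and no test was made.

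The count of members higher in D1 MSN was 0 with a pseudocount of 10 TPM, 1 with means of log2 values, 1 without FACS086_4 and 0 without the highest cells. Pathway genes higher in D1 MSN numbered 7 without the cell with astrocyte markers, 0 with 10 TPM and 5 with means of log2 values, and those lower 3 with 10 TPM, 2 with means of log2 values and 6 without the highest cells.

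For Chat-positive cells over D2 MSN, means of log2 values gave 1.14 for Ntrk2, -0.013 for Ntrk3, 2.09 for Sort1 and -0.14 for Gfra2, with 2 members higher and 0 lower and 31 pathway genes higher and 2 lower. This scale moved the median over all genes from 0.33 to 1.61. Gfra2 was -1.60 with 0.1 TPM, -0.068 with 10 TPM, -0.97 against D2 MSN of the same plate and -1.44 against all MSN. Members lower numbered 2 with 0.1 TPM and 2 against all MSN, where 1 was higher, and pathway genes lower numbered 3 with 10 TPM.

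Above 10 TPM instead of 1 TPM, the shares were 62.5% of D1 and 60.5% of D2 MSN for Ntrk2, 47.4% of D2 MSN for Ntrk3, 40.0% and 36.8% for Sort1, 7.5% and 2.63% for Gfra2 and 0% of D2 MSN for Bdnf. Above 0 TPM they were 94.7% of D2 MSN for Ntrk2, 92.1% for Ntrk3, 28.9% for Gfra2 and 31.6% for Bdnf, and 77.5% of D1 MSN for Sort1 and 27.5% for Bdnf. Without FACS086_4 they were 100% (Ntrk2) and 0% (Bdnf) of D1 MSN and 89.5% of D2 MSN for Ntrk3, and without FACS051_5 0% of D1 MSN for Gfra1. The correlation of Ntrk3 and Cyfip2 was 0.37 with gene number regressed out. The cause of these shifts was not tested, except that a higher limit or fewer cells leaves fewer values. TPM show no depth, so a transcript listed at 0 may have been missed.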
